A study of Mus musculus with 3 samples.

Results

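The clustered protocadherin genes are 57 of the 21900 protein-coding genes in the gene table. They were chosen by position and name, as the protein-coding genes on mouse chromosome 18 (mm10) whose symbol begins with Pcdha (14 genes), Pcdhb (22 genes) or Pcdhg (21 genes). The clusters lie side by side between 36930285 and 37841873, a stretch of 912 kb. The transcribed pseudogene Pcdhgb8 and the read-through models Gm37013, Gm38666 and Gm38667 fall outside the rule. The assay was ATAC-seq, which marks open chromatin by the places where a transposase can insert into DNA. Callosal projection neurons (CPN), which join the hemispheres, gave 2 libraries, and corticospinal motor neurons (CSMN), which project to the spinal cord, gave 1. Both were FACS-sorted from mouse brain, with 50000 cells per replicate. No genotype, treatment, age or strain was given in the sources used here, nor the labelling used for sorting. The labels call the sorts biological replicates, without saying whether the CPN sorts came from separate animals.

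Clustered protocadherins are cell-surface adhesion molecules that let a neuron tell its own branches from those of other neurons. In the Pcdha and Pcdhg clusters, each gene has its own first exon, called the variable exon, with its own promoter, and this exon is spliced to constant exons shared by the cluster. Pcdhb genes have only the variable part. Alternate promoters are chosen at random in each neuron, with the help of the insulator protein CTCF and cohesin, whereas the C-type genes at the downstream ends of the Pcdha and Pcdhg clusters are used in most neurons that express them. The gene models show this layout. Starts of the 14 Pcdha models spread over 213393 bp while their ends lay within 1240 bp, and all 21 Pcdhg models ended within 10 bp. Pcdhb models were 2340 to 5271 bp long.

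The deposited lists held 134018 peaks in CPN 1, 158779 in CPN 2 and 98067 in CSMN. Median peak folds were 3.82, 3.68 and 2.86, so folds in CSMN ran lower across the genome and are read here only against other peaks of the same list. Folds are the authors' values. A −log10 q of at least 5 was reached by 72.4%, 65.4% and 55.2% of the peaks. As a check of the sort, peaks within 1 kb of an end of the gene were counted for listed markers. All 6 interneuron genes and all 4 endothelial and mural genes had such a peak in every library, as did 8 of 11 excitatory neuron genes. Of all protein-coding genes, 64.1% had one in all 3 libraries and 26.6% had none in any. Gene-end peaks thus did not separate these cell types, so the labels could not be checked this way. Of the glial markers, 2 of 4 astrocyte, 3 of 5 oligodendrocyte lineage and 1 of 4 microglia genes had one in all 3 libraries, and Aqp4, Sox10, Aif1 and Csf1r had none in any. Their part in the results below was not tested.

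Most protocadherin genes had no peak called at the start. A peak within 1 kb of the variable-exon start was found for 19 of the 57 genes in CPN 1 (33.3%, Wilson 95% interval 22.5 to 46.3), 15 in CPN 2 (26.3%, 16.6 to 39) and 12 in CSMN (21.1%, 12.5 to 33.3). Over all protein-coding genes with a known strand, the shares were 65.5%, 66.3% and 63.4%. At 36 protocadherin genes (63.2%) no library had such a peak, against 30.9% of all genes. In all 3 libraries 10 genes (17.5%) had one, against 61.2%. The clusters differed in these counts. A peak in at least 1 library was found at 4 of 14 Pcdha genes, 1 of 22 Pcdhb genes and 16 of 21 Pcdhg genes.

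**Figure D1:**
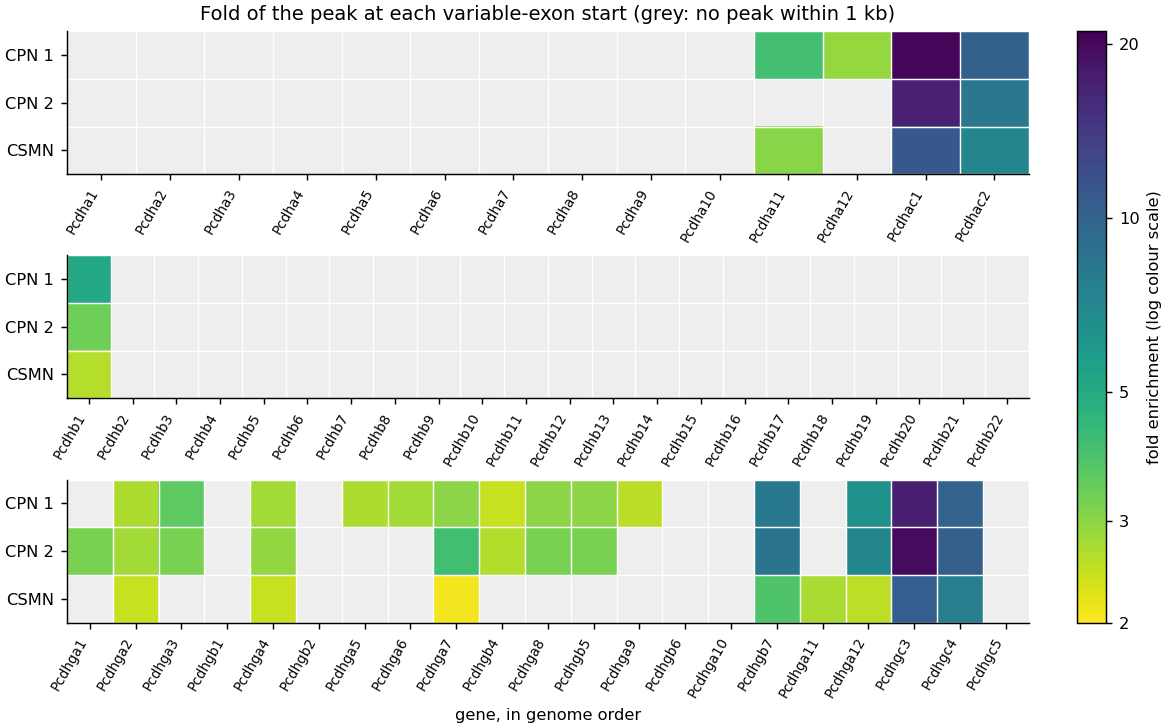
Fold of the strongest peak within 1 kb of each variable-exon start (colour, log scale) for every gene in genome order (columns) and library (rows), with grey where no peak was called. The darkest cells are Pcdhac1 and Pcdhgc3, the Pcdhb panel is grey beyond Pcdhb1, and most Pcdhg alternates are pale. Among these alternates, Pcdhgb7 (8.09, 8.53 and 3.82 in CPN 1, CPN 2 and CSMN) is darkest in every row. Pcdhga12 (6.36, 7.16 and 2.52) is next in the CPN rows. Folds in CSMN ran lower across the genome, so colours are read within a row.

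**Figure D2:**
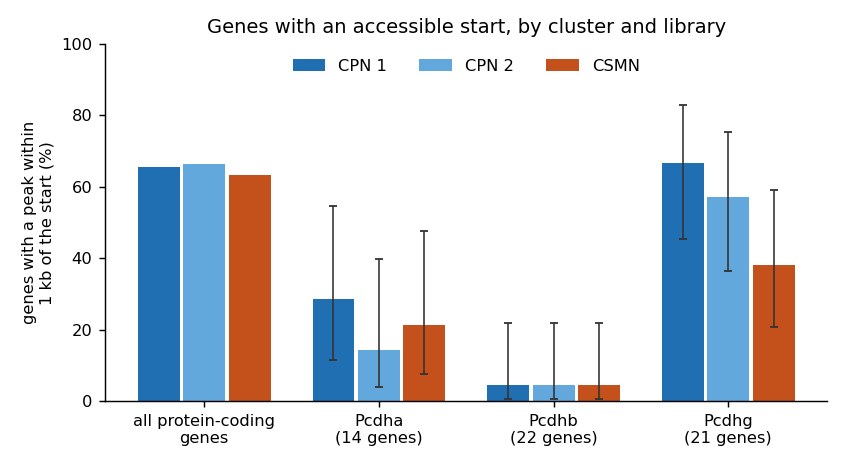
Percentage of genes with a peak within 1 kb of the start, for all protein-coding genes with a known strand and for each cluster, by library, with Wilson 95% intervals on the clusters. Pcdhb stands at 4.55% in each library, and Pcdhg runs from 38.1% in CSMN to 66.7% in CPN 1.

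The strongest start peaks were at C-type genes. Pcdhac1 (37090136 to 37187657) had a start peak in every library, and its fold was 20.1 (CPN 1), 16.9 (CPN 2) and 11 (CSMN). These folds lay at percentiles 98, 96.6 and 95.8 of all peaks in their own lists. Pcdhgc3, whose product promotes dendrite branching in cortical neurons, followed with folds of 17.2, 19.6 and 10.4 at percentiles 96.4, 98 and 95. Pcdhac1 was the highest member in CPN 1 and CSMN and Pcdhgc3 in CPN 2, so the order of this pair differed between the CPN libraries themselves.

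The other accessible C-type genes were lower. Pcdhac2 (37143678 to 37187663), whose product is needed for the spacing of serotonergic axons, had folds of 10.1, 8.24 and 7.18. Pcdhgc4, needed for the survival of some interneurons, had folds of 10, 10.3 and 7.69, and its accessible stretch was called as 3 peaks within the window in CPN 2 and as 1 in the other lists. The strongest start peaks of the 4 genes were 548 to 1815 bp wide over the 3 libraries, and the median width over all genes was 937, 766 and 904 bp in CPN 1, CPN 2 and CSMN. In CPN 2, Pcdhac1 at 548 bp and Pcdhgc4 at 721 bp were narrower than that median. Pcdhgc5 (37819546 to 37841873), whose product binds GABA-A receptors, differed from the other C-type genes. It had no peak within 1 kb of its start in any library, and a region found in all 3 lists had its summit 4818 bp inside the gene.

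Against the start peaks of all genes, the C-type peaks lay on both sides of the median. The median fold of such peaks was 13.5, 13.4 and 8.16 in the same order of libraries. Pcdhac1 stood at percentiles 81.7, 67.2 and 72 of these, Pcdhgc3 at 68, 79.4 and 67.4, Pcdhac2 at 34.1, 27.1 and 42.1 and Pcdhgc4 at 33.5, 36.1 and 46. The remaining member peaks were mostly lower by the same measure, and the highest was Pcdhgb7 at percentiles 25.6, 28.2 and 15.6. In CPN 2, Pcdhgb7 lay above the C-type gene Pcdhac2 at 27.1, so the groups overlapped there.

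**Figure D3:**
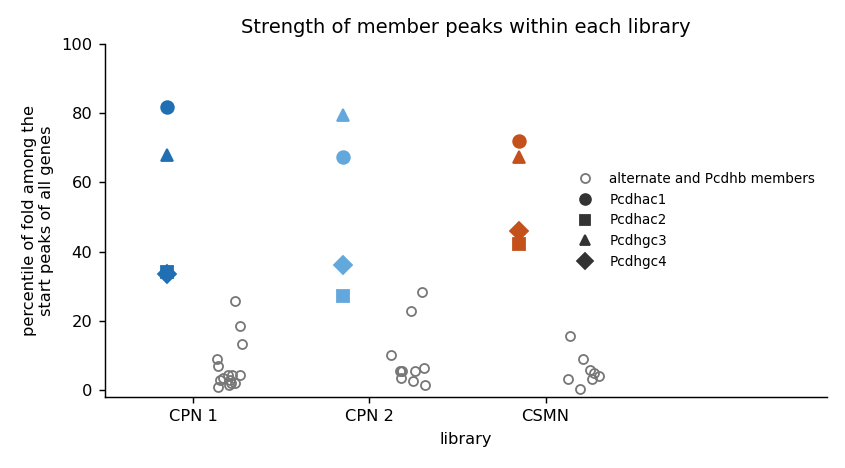
Percentile of each member's fold among the start peaks of all genes in the same library, with C-type genes as filled symbols and all other members with a peak as open circles. The C-type genes run from 27.1 to 81.7, and the other members stay at or below 28.2.

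Among the alternate Pcdha genes, 10 of 12 had no start peak in any library, from Pcdha1 through Pcdha10 in genome order. Pcdha11 (37010858 to 37187657) had a peak in CPN 1 with a fold of 4.05 and in CSMN with 3.04, and none in CPN 2. Pcdha12 (37020230 to 37187657) had a peak of fold 2.89 in CPN 1 alone, with a −log10 q of 4.32. The CPN libraries thus disagreed at both of these genes, which are the alternates nearest to the C-type exons. In a bulk library, a site open in few cells and a site less open in each cell cannot be told apart, and this holds for every weak peak described here.

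Beyond the first Pcdhb gene, no start peak was called. Pcdhb1 (37264998 to 37267454), at the upstream edge of its array, had a start peak in every library, with folds of 5.09 (CPN 1), 3.36 (CPN 2) and 2.6 (CSMN). Its −log10 q was 16.5, 5.09 and 3.99 in that order. From Pcdhb2 through Pcdhb22, no gene had a start peak in any library. In CPN 1 the list was empty for 379 kb after Pcdhb1, from 37265208 to 37643935, and in CSMN for 378 kb, from 37265465 to 37643949. These gaps held the starts of 21 member genes. As long were 386 of 133556 gaps between neighbouring peaks in CPN 1 and 259 of 97252 in CSMN, with medians of 7.36 and 11.8 kb.

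CPN 2 had 3 weak peaks within the Pcdhb array, near Pcdhb7, Pcdhb16 and Pcdhb21, with folds of 2.78, 2.92 and 2.92. Each lay more than 1 kb from the nearest start. The longest gap in the full CPN 2 list was therefore 136 kb and held the starts of 9 member genes, and 2004 of 158245 gaps were as long. Once peaks with a −log10 q under 5 were left out, the gap of CPN 2 was also 379 kb long. Variable exons of a cluster resemble one another in sequence, and the part that reads mapping to several places play in these empty stretches was not tested.

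Most peaks at Pcdhg alternates were weak. A start peak was found at 66.7% of these 18 genes in CPN 1, 55.6% in CPN 2 and 33.3% in CSMN, against the 65.5%, 66.3% and 63.4% of all genes. Of the 18, 14 had a start peak in at least 1 library, namely 11 of 12 Pcdhga and 3 of 6 Pcdhgb genes. The 4 with none in any library made up 22.2%, against 30.9% of all genes. Their median fold was 2.89 in CPN 1 (12 genes), 3.21 in CPN 2 (10 genes) and 2.48 in CSMN (6 genes), below the median of all peaks in each list. Peaks with a −log10 q of at least 5 numbered 3, 3 and 1. The widths ran from 103 to 476 bp. No alternate start peak was found at Pcdhgb1, Pcdhgb2, Pcdhgb6 or Pcdhga10.

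The strongest alternates of both CPN libraries, Pcdhgb7 and Pcdhga12, lay toward the downstream end of the array. Pcdhgb7 (37751619 to 37841870) had folds of 8.09 (CPN 1), 8.53 (CPN 2) and 3.82 (CSMN), at percentiles 82.8, 86 and 69.2 of the respective lists. Pcdhga12 (37765580 to 37841873) had folds of 6.36, 7.16 and 2.52, at percentiles 75.2, 81.3 and 31. Between these genes lies Pcdhga11 (37755773 to 37841873), where a peak was called in CSMN alone, with a fold of 2.69, above that of Pcdhga12 in the same library. The lists differ in length, so no change is read from the percentiles. Pcdhga2 was among the weakest genes found in all 3 libraries, with folds of 2.66, 2.78 and 2.43, and Pcdhgb4 had the lowest CPN 1 fold of the cluster at 2.43, with 2.63 in CPN 2. The next lowest was Pcdhga9, with a peak of fold 2.54 in CPN 1 alone. Counting the strongest peak of each gene in each library, 46 in all, the summits lay between -283 and 381 bp from the gene start, negative values being upstream.

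Few starts separated the cell types. CPN-only genes, with a start peak in each CPN list but not in that of CSMN, numbered 4 (7.02%, against 2.7% of all genes), all Pcdhg alternates. These were Pcdhga3 (folds 3.59 in CPN 1 and 3.21 in CPN 2), Pcdhgb4, Pcdhga8 (3.01 and 3.21) and Pcdhgb5 (3.01 and 3.21). The Pcdhga8 peaks of the CPN libraries did not overlap each other. The reverse, called CSMN-only, was found at Pcdhga11 alone (1.75%, against 1.23% of all genes).

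Both counts changed with the settings. With lists cut to the 98067 strongest peaks, the full length of the CSMN list, CPN-only genes numbered 0 and CSMN-only genes 3. The latter were Pcdhga2, Pcdhga4 and Pcdhga11. This cut trims the CPN lists alone, so CPN-only genes could only fall in number and CSMN-only genes only rise. Once peaks with a −log10 q under 5 were left out, CPN-only genes numbered 2, Pcdhb1 and Pcdhga12, and CSMN-only genes 0. In the full lists both had a start peak in all 3 libraries. Their CSMN peaks, with −log10 q of 3.99 and 3.55, fell under the cut. Without CPN 2 the CPN-only genes numbered 8, and without CPN 1 the CSMN-only genes numbered 2. Leaving out a CPN library loosens both definitions, so these counts could only stay or rise.

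The CPN replicates also differed from each other. CPN 1 and CPN 2 differed in the presence of a start peak at 6 of the 57 genes, CPN 1 and CSMN at 9, and CPN 2 and CSMN at 7. Of all genes, 3.95% differed between the CPN libraries, 5.42% between CPN 1 and CSMN and 6.41% between CPN 2 and CSMN. Among Pcdhg genes alone the counts were 4, 8 and 6 of 21. With 1 CSMN library no spread could be measured on that side, and no test was made.

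Peaks and regions were also counted over the whole span, member starts included. Across the clusters and 100 kb on each side there were 47 peaks in CPN 1, 57 in CPN 2 and 37 in CSMN. Merging by overlap gave 61 regions. Common to the 3 lists were 30 of them (49.2%), compared with 30.6% of regions over the genome. CPN-only regions numbered 6 (9.84%, against 19.4%) and CSMN-only regions 5 (8.2%, against 11.8%). With lists of equal length, a setting that trims the CPN lists alone, these were 1 and 9. With a −log10 q of at least 5 there were 6 CPN-only and 0 CSMN-only regions. Away from the member starts lay 38 regions, of which 20 (52.6%) were common to the 3 lists, 3 CPN-only and 3 CSMN-only. The strongest of these 38 were found in every library.

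A single region stood between the Pcdha and Pcdhb clusters, at 37217192 to 37218485, starting 28295 bp beyond the last Pcdha model. Its folds were 18.9 (CPN 1), 18.7 (CPN 2) and 14.8 (CSMN), the highest of the whole span in CSMN. Enhancers that act on the Pcdha genes are known within and downstream of that cluster, but no enhancer coordinates were used here and no region was assigned to one. Inside the Pcdha cluster, downstream of Pcdhac2, regions at 37172260 to 37172772 (folds 11.7, 10.5 and 6.25) and 37178072 to 37179307 (11.5, 10.8 and 8.91) were also common to all lists. They lay 28715 and 34828 bp after the Pcdhac2 start, measured to the summit. All 6 regions from Pcdhac1 to the end of the Pcdha cluster had a peak in every library, whereas 0 of the 5 among the Pcdha alternates did.

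In the Pcdhg cluster a region with its summit at -5434 bp from the start of Pcdhgc3, at 37800839 to 37801178, had folds of 8.21, 8.47 and 4.43. Within Pcdhgc5 there were regions in all lists at 37823955 to 37824662 (7.25, 7.13 and 3.44) and 37835330 to 37836646 (5.39, 6.15 and 3.04). The pseudogene Pcdhgb8 had a peak within 1 kb of its start in CPN 2 alone, with a fold of 3.21.

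The remaining strong regions of the span lay at or within the models of other genes, and none was assigned to a target gene. Taf7, which encodes a subunit of the general transcription factor TFIID, sits between Pcdhb and Pcdhg. At the upper-coordinate end of Taf7 was a peak with folds of 25.7, 28.5 and 13.9, the highest of the span in both CPN libraries. Diaph1, an actin-nucleating formin gene just downstream of Pcdhg, had a peak at its upper-coordinate end with folds of 18.6, 22 and 12.8. The strand of these genes was not known here, so whether these ends are gene starts was not determined. Within Diaph1, the region at 37851964 to 37852585 had folds of 16.7, 18 and 13.3, that at 37877169 to 37878091 had 11.4, 12.6 and 10.4, and that at 37883514 to 37883796 had 11.3, 15.2 and 7.8.

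**Figure D4:**
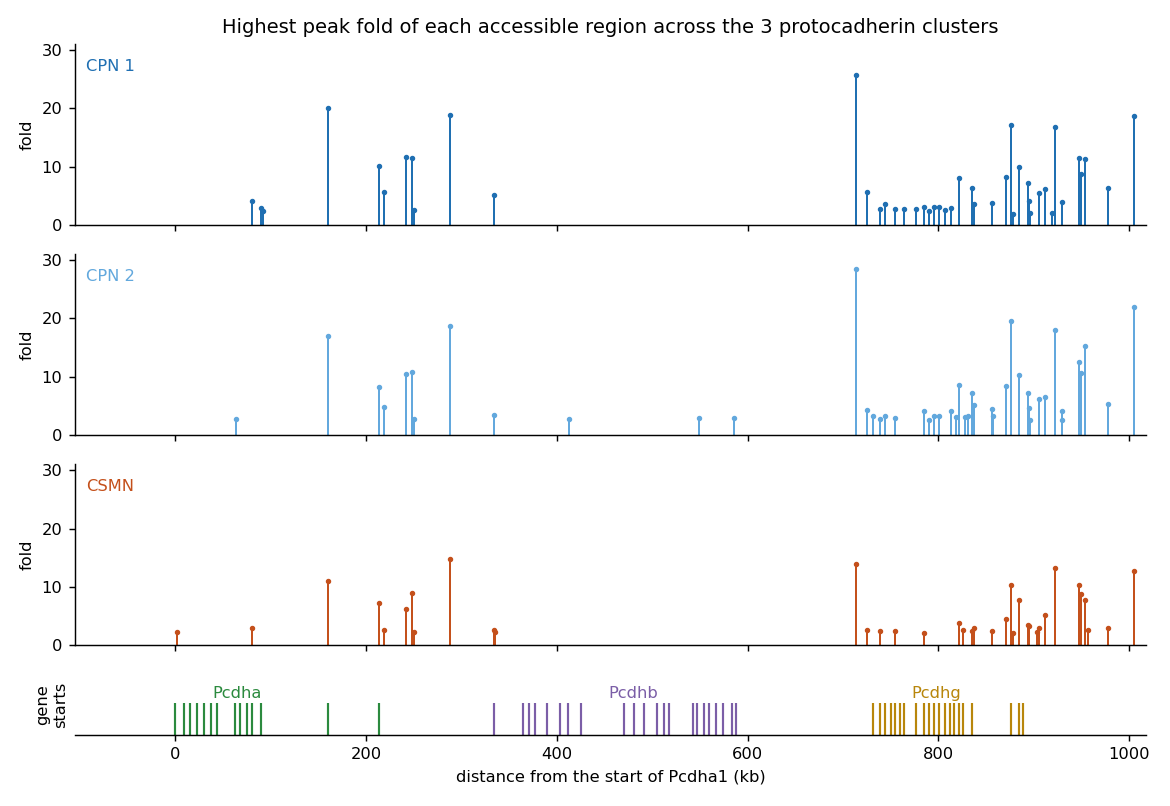
Highest peak fold of each merged region (vertical lines) in each library against distance from the start of Pcdha1 in kb, with the 57 gene starts marked below by cluster. Strong regions stand at the C-type genes, between Pcdha and Pcdhb, and from Taf7 onward, and the Pcdhb array is nearly empty.

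Peak density changed along the clusters. Over the autosomes and X the lists held 5.08, 6.02 and 3.7 peaks per 100 kb in CPN 1, CPN 2 and CSMN. The Pcdhb array held 0.388, 1.55 and 0.777 and the alternate Pcdha exons 1.88, 0.626 and 1.25. The Pcdhg alternate exons held 11.1, 12.4 and 6.22, and the stretch from Pcdhgc3 to the end of the Pcdhg cluster held 21.9, 30.2 and 19.2. The flank upstream of Pcdha1 had 0 peaks in 99 kb in every library, and the downstream flank, which holds Diaph1 and an end of Hdac3, had 9, 10 and 8. Over the whole span the bases covered by peaks came to 2.19%, 1.8% and 1.75%, near the 2.07%, 1.79% and 1.5% of the autosomes and X.

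**Figure D5:**
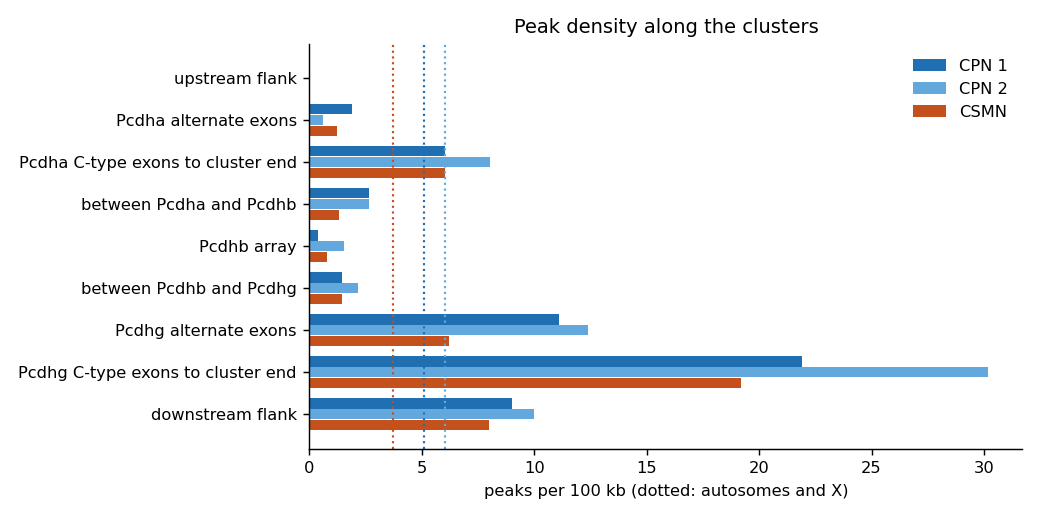
Peaks per 100 kb in 9 consecutive segments of the clusters and flanks (bars, by library), with dotted lines at the density over the autosomes and X in the same library. Both Pcdhg segments exceed the lines in every library, and the Pcdhb array and the alternate Pcdha exons fall below them.

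The genes that regulate or work with these protocadherins had accessible ends in both cell types. Of 32 listed genes, 27 had a peak within 1 kb of an end of the gene in all 3 libraries, 5 had none in any, and none was CPN-only or CSMN-only. Over all 21900 genes an end peak was found for 69.2% in CPN 1, 70.2% in CPN 2, 66.6% in CSMN and 64.1% in all 3, while 3.33% were CPN-only, 1.41% CSMN-only and 26.6% without a peak in any list. Ctcf had folds of 15.1, 11.9 and 9.46, the cohesin subunit gene Smc3 17.2, 19.3 and 13.7, and the cohesin release factor gene Wapl 26.7, 26.7 and 16.8. Smchd1, which silences clustered protocadherin genes, had 19.3, 18.2 and 11.3. Rad21, Stag1, Nipbl, Dnmt3a and Abi2 had no peak at either end of the model. Rad21 and Nipbl, which encode a cohesin subunit and its loader, are active in most cells. Whether the ends of a model in this gene table are the start in use was not tested, for these genes or for the members.

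Relatives outside the clusters had gene-end peaks more often than the members. Of 12 non-clustered protocadherins, 10 had a gene-end peak in all 3 libraries, with folds of 10.6, 11.5 and 8.93 at Pcdh10. Pcdh12 was CPN-only and Pcdh9 had none. Of 13 cadherin genes from Cdh1 to Cdh13, 11 had one in all 3 libraries. Over all protein-coding genes this share was 64.1%. Cdh6 was CSMN-only, with a fold of 2.26, and Cdh13 had none. The gene-end measure accepts either end of a model and is thus more lenient than the start measure used for the clusters. By the gene-end measure 26 of the 57 members had a peak in CPN 1, 25 in CPN 2 and 25 in CSMN. By the start measure 8 of 9 non-clustered protocadherins and 5 of 6 cadherin genes with a known strand had a peak in each library.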

How the data were processed

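ATAC-seq peak lists of 2 CPN libraries and 1 CSMN library were analysed. Per the submitters' processing notes, the build was mm10 and the tools included MACS2 2.2.7.1, BWA 0.7.17 and bedtools 2.29.2. Peak names carry 1 library each, so the deposited peaks were taken as called per library. How reads were filtered, deduplicated, shifted for the transposase and handled when mapping to several places is not given in the sources used here. Every deposited peak has the authors' fold enrichment (a ratio), −log10 p and −log10 q at its summit, and a score, which in at least 99.9% of the peaks of each list was 10 times the −log10 q cut to a whole number. Read totals were not given, so the only measures of depth are the lists themselves.

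Gene positions came from a RefSeq table of GRCm38.p6, which is mm10. Members were the protein-coding genes of chromosome 18 whose symbol begins with Pcdha, Pcdhb or Pcdhg. Models of the Pcdha and Pcdhg clusters share an end and differ at the other, so the variable-exon end was the lower coordinate, and Pcdhb genes were read the same way. A peak counted when any part lay within 1 kb. The background was 17492 protein-coding genes with a known strand, none on chromosome 18. Gene lists planned on gene starts were counted at either end of the model, because the strand was known for only part of them. Of the 57 members, 0 matched the RefSeq promoter table, so no sequence is shown and the planned motif counts were not made. Peaks sharing at least 1 bp were merged into regions.

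CSMN had 1 library, so no test between cell types was made, and the CPN pair gave the spread between replicates. Wilson 95% intervals cover counting error only and treat genes as independent draws. Counting and merging were tested on simulated peaks with Python 3.11.15. The members and lists were chosen with earlier results of these data known. Genes named with values were the C-type genes, those found in one cell type only, and the strongest and weakest of each cluster by CPN 1 fold. The 5 strongest regions per list away from member starts were named too. Pcdhga2, Pcdhga4 and Pcdhga12, regulators named singly, and features singled out by position, were chosen after their values were seen. Alternatives were the distance, the gene end, the summit, the flanks, the overlap, a −log10 q of at least 5, lists of equal length and leaving out each CPN library.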

Additional observations from a re-analysis of the deposited data

How the results depend on the processing

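Of 69 values recomputed under the alternatives, 43 stayed within 1.5 times the value reported and 26 moved further. Some of the 43 could not move. Leaving out a CPN library leaves the counts of each other library as they were, and lists of equal length leave the CSMN list uncut. The tally is therefore no measure of how stable the results are. With a −log10 q of at least 5, genes with a start peak numbered 9 in CPN 1, 8 in CPN 2 and 6 in CSMN, CPN-only genes 2 and CSMN-only genes 0, peaks of the span 31, 37 and 22, and CSMN-only regions 0. CPN-only regions stayed at 6. With lists of equal length, genes with a start peak numbered 9 in CPN 1 and 7 in CPN 2, CPN-only genes 0 and CSMN-only genes 3, peaks of the span 31 in CPN 1 and 36 in CPN 2, CPN-only regions 1 and CSMN-only regions 9. This setting trims the CPN lists alone. With either end of the gene model counted, start peaks numbered 25 in CPN 2 and 25 in CSMN and genes found in one cell type only 0 on both sides, because Pcdhg models share an end with a peak. Within 2 kb, CSMN-only genes numbered 2. Leaving out each CPN library, CPN-only genes ranged from 5 to 8, CSMN-only genes from 1 to 2 and CPN-only regions from 13 to 22. The gene counts could only stay or rise here, because fewer CPN lists loosen both definitions. The cause of the other moves was not tested. The distance of 500 bp, the summit, the flanks and the overlap of 50% moved no count further than 1.5 times. Pcdhac1, Pcdhac2, Pcdhgb7, Pcdhgc3 and Pcdhgc4 kept a start peak in all 3 libraries at a −log10 q of at least 5 and with lists of equal length. No paired analysis was made, because the groups share only 1 replicate number and a shared number alone does not show a pairing. Read depth was not given, so a missing peak shows only that none was called.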
